A study of Mus musculus with 6 samples.

Results

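The protein-coding genes of a segment of mouse chromosome 15, with starts between 76.7 and 79 Mb (mm10), were followed in RNA-seq counts of C2C12 cells, a mouse myoblast line whose cells fuse into myotubes in low serum. The segment was picked out on measured values of the same libraries, as a stretch with many lower genes in the line carrying a guide RNA against Prr33, so its members were chosen by the very contrast described here. Their fold changes and counts of lower genes are given as a description and no test is read from them. Myh9, Mb and genes whose names start with Rpl or Rps were set aside by the rule, which left 58 members among the 55804 rows of the table.

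The study compared 3 Prr33-gRNA libraries, from cells in which PRR33 was knocked down with CRISPR/Cas9 and a guide RNA, with 3 Ctrl-gRNA libraries, labelled WT and carrying a control guide RNA. All 6 came from C2C12 cells after 3 days in differentiation medium with horse serum. The labels name no more than 1 line per guide, and they do not say whether the libraries were grown as separate cultures. The p-values therefore cover only library-to-library spread, possibly a technical one, and the guide's effect and differences between the derived lines cannot be told apart. In bulk RNA, fewer cells of a type and less RNA per cell cannot be told apart either.

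Total counts were 17412383 to 19471762 per Prr33-gRNA library and 17006381 to 19118010 per Ctrl-gRNA library. Prr33 itself was at 43.1, 45.8 and 42.4 CPM in the Prr33-gRNA libraries and at 61.4, 60.0 and 54.3 CPM in the Ctrl-gRNA libraries (CPM being a gene's counts scaled to library size), with a log2 fold change of -0.42 (SE 0.06, edgeR adjusted p = 1.37e-06). The summed level of 7 skeletal muscle markers was 15794 to 16947 CPM in Prr33-gRNA and 28496 to 28824 CPM in Ctrl-gRNA libraries. The summed level of 5 fibroblast markers, of which Lum was at 0 throughout, was 16.1 to 18.3 CPM against 185 to 207 CPM, and the part of these and the following marker levels in the results was not tested. The sum of 6 neural and glial markers, of which 2 averaged at least 1 CPM and Rbfox3, Sox10 and Snap25 were at 0, was 4.65 to 6.41 CPM in Prr33-gRNA and 9.40 to 13.2 CPM in Ctrl-gRNA libraries. The sum of 6 blood markers, of which 1 averaged at least 1 CPM and Ptprc and Cd3e were at 0, was 0.899 to 1.55 CPM against 0.952 to 1.88 CPM. The 4 endothelial and 4 epithelial markers each averaged below 1 CPM.

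Neighbouring genes on a chromosome are usually separate transcription units, and they may share regulatory DNA or a domain of active or silent chromatin. A block of neighbours also moves together when the number of copies of a stretch of DNA changes. The segment holds the mouse apolipoprotein L cluster, a family of membrane-active and lipid-binding proteins with many copies in tandem. A human relative, APOL1, lyses trypanosomes, and mouse Apol9a and Apol9b are known as genes induced by interferon. Around the cluster lie unrelated genes for actin and small GTPase control, galectins, sulfur metabolism, splicing and translation.

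Interferon-induced genes often carry the interferon-stimulated response element near their start, and its core was searched as GAAANNGAAA on one strand or TTTCNNTTTC on the other. The RefSeq promoter table (GRCm38.p6; 250 bases before to 50 after each annotated start) held 18 of the 34 members with enough counts to be tested, and Apol6 was not among them. The core was found in 3 of the 18, Apol9a, Apol9b and Apol10b, beside 3.99% of all 27025 genes in the table and 3.44% of its 32851 promoters, since a gene may have several. No enrichment is read from this count, since the segment was chosen for its falls and only tested members were searched. The promoters of these 3 genes and of Apol8, the next apolipoprotein L gene along, are printed because they carried the 4 deepest falls among the members, described below. Each reads 5′ to 3′ on the strand of its gene, and capitals mark the letters of the core, which in Apol9a and Apol9b is 2 overlapping matches in 1 run of 16 bases. The Apol9a window is chr15:77411031-77411330 (minus strand), Apol9b is chr15:77728822-77729121 (plus strand), Apol10b is chr15:77596076-77596375 (minus strand), and Apol8 is chr15:77756961-77757260 (minus strand).
Apol9a: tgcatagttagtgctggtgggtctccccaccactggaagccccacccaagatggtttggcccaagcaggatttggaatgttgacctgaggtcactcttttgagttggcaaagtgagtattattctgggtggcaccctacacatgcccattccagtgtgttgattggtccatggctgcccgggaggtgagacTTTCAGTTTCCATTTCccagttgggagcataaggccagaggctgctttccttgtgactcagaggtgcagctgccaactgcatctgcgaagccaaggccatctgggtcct
Apol9b: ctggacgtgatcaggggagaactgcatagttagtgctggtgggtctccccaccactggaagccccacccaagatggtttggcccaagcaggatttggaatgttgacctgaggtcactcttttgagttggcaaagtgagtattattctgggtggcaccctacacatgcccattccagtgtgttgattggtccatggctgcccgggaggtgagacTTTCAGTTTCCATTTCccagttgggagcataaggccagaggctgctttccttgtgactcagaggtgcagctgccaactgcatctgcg
Apol10b: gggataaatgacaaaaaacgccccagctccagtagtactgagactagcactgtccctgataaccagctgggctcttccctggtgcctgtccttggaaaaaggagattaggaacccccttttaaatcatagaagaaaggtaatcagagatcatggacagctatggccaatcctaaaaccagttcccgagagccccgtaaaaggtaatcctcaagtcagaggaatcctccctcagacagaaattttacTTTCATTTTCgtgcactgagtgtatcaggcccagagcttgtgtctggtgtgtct
Apol8: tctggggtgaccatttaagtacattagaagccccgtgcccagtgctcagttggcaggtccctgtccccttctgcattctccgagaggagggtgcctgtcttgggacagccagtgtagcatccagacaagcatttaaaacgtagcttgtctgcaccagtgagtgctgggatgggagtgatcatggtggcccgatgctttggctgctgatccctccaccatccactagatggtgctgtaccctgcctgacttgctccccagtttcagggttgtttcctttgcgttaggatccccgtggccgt
The Apol9a and Apol9b windows shared an identical run of 278 bases. It includes the core, so the matches of these genes are the same sequence and not separate finds. The window of Apol7a, not printed, also held no match. A match of letters is not a binding site. Its absence in Apol8 and Apol7a says only that these letters are not in their windows.

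Of the 58 members, 34 had enough counts to be tested, 14 had no count in any library, and the remaining 10 had at most 33 counts over all 6 libraries. Tested members that were lower in Prr33-gRNA numbered 20 and 1 was higher, at an edgeR adjusted p below 0.05 over all 14651 tested genes, where 26.6% were lower and 25.5% higher. Their median log2 fold change was -0.42, with quartiles of -0.88 and -0.14 and a range of -4.97 to 0.92. A fall of at least 2-fold was seen for 7 members, beside 7.96% of all tested genes. All 3 Prr33-gRNA libraries lay below all 3 Ctrl-gRNA libraries for 23 members (29.3% of all tested genes) and above them for 2 (28.6%), and the groups overlapped for the other 9. Since only members with counts passed into the test, and the segment was chosen for its falls, these shares describe it and support nothing further.

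The members took 0.229%, 0.239% and 0.219% of all counts in the Prr33-gRNA libraries and 0.314%, 0.297% and 0.302% in the Ctrl-gRNA libraries. The groups did not overlap, and the ratio of their means was 0.752. The apolipoprotein L genes gave much of that difference: their share was 0.00891% ± 0.00107 in Prr33-gRNA and 0.0511% ± 0.00172 in Ctrl-gRNA (SD, n = 3 each). For the members outside the family the share was 0.220% ± 0.00917 in Prr33-gRNA and 0.253% ± 0.00736 in Ctrl-gRNA (SD, n = 3 each). The ratio of these means was 0.869. Both flanks also took a smaller share in Prr33-gRNA. The mean for the left flank was 0.366% in Prr33-gRNA and 0.520% in Ctrl-gRNA, a ratio of 0.704, below the 0.752 of the members. The sets are unlike, since no genes were set aside from the flanks. The left flank also holds Ly6a, Ly6e and Parp10, whose deep falls are given below, and its median log2 fold change was -0.15. The right flank had 0.654% and 0.723%, a ratio of 0.905. With the family left out, 14 of 28 tested members were lower and 1 was higher, and their median was -0.33. Lower genes made up 50% of these members, beside 26.6% of all tested genes, 41.3% in the left flank and 51.9% in the right flank.

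**Figure D1:**
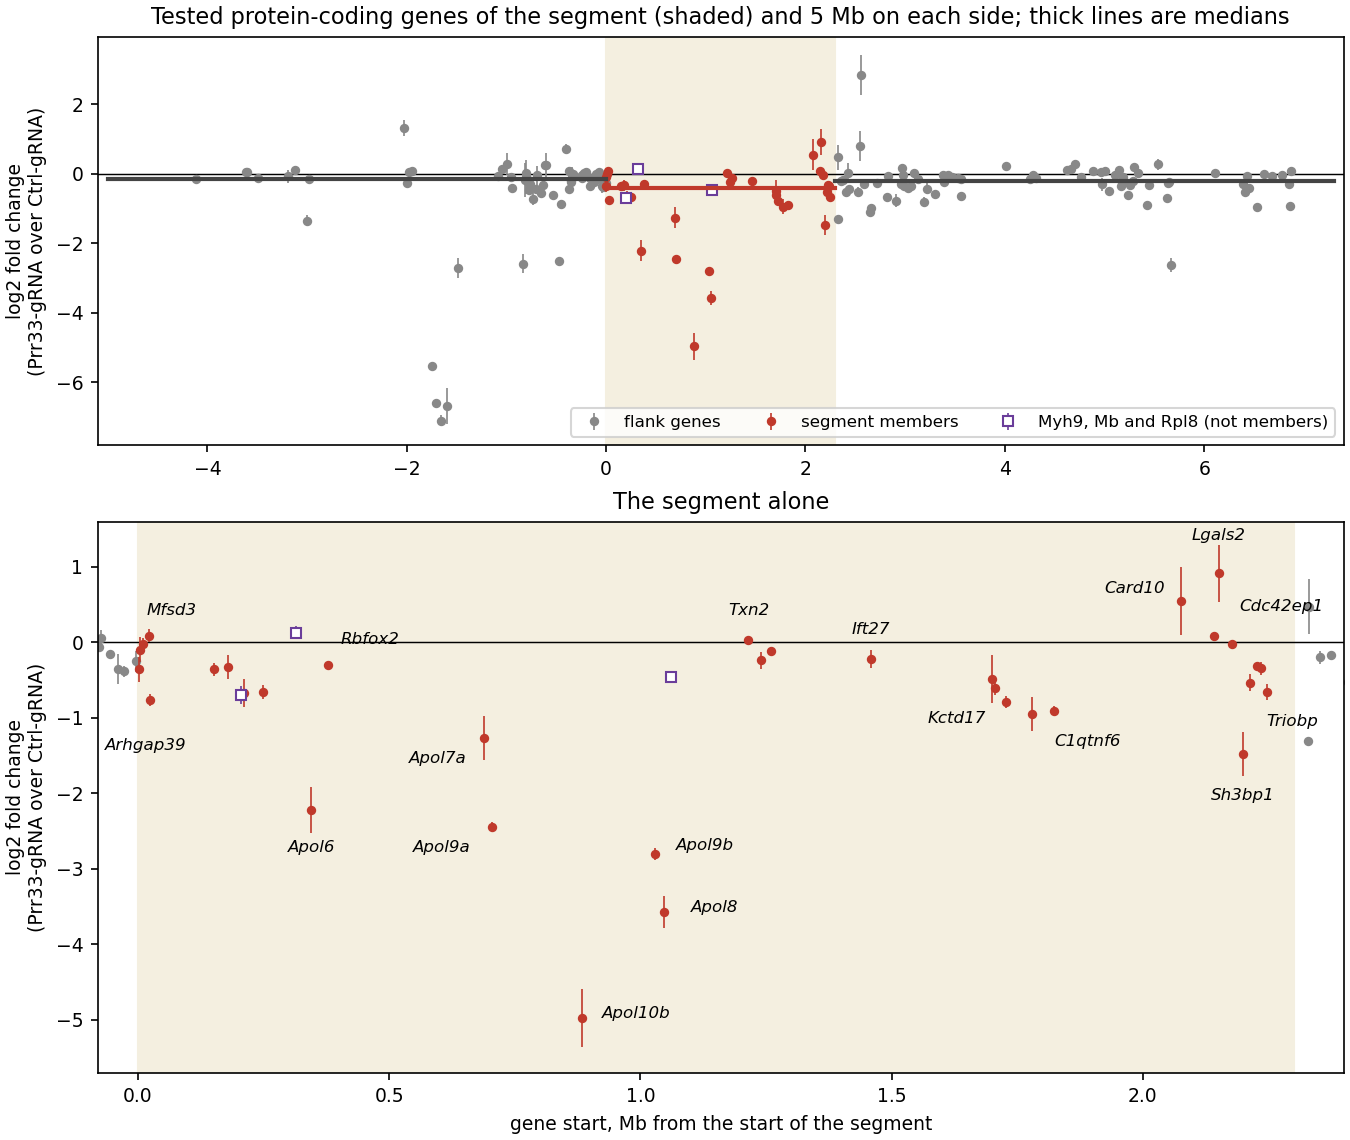
Log2 fold change (Prr33-gRNA over Ctrl-gRNA, with its SE) of each tested protein-coding gene against its distance in Mb from the start of the segment, with 5 Mb on each side in the upper panel and the segment alone in the lower one. Red points are members, grey points flank genes and open squares the genes set aside, and the thick lines are medians (-0.42 for the members, -0.15 in the left and -0.20 in the right flank). The 5 deepest members are apolipoprotein L genes, between -2.22 and -4.97, and Ly6 genes of the left flank lie deeper still, down to -7.11. The 4 tested members from Txn2 to Ift27 lie between -0.24 and 0.03.

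Apolipoprotein L genes made up the 5 deepest falls among the members. All 6 that were tested were lower in Prr33-gRNA, with log2 fold changes of -4.97 to -1.27 and a median of -2.62. Apol9b (chr15:77729039-77736382, plus strand) was at 38.9, 34.4 and 28.6 CPM in the Prr33-gRNA libraries and at 246, 232 and 230 CPM in the Ctrl-gRNA libraries. Its log2 fold change was -2.80 (SE 0.08), a level 6.96-fold lower, and each Prr33-gRNA library stood far below each Ctrl-gRNA library. Per length, it was the most abundant of the family, with 18.6 FPKM in Prr33-gRNA and 129 FPKM in Ctrl-gRNA (FPKM being counts scaled to gene length and to a constant per library).

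Apol9a (chr15:77403789-77411135, minus strand) was at 53.0, 51.5 and 43.3 CPM in the Prr33-gRNA libraries and at 276, 272 and 253 CPM in the Ctrl-gRNA libraries. It was lower in every Prr33-gRNA library, 5.43-fold on average (log2 fold change -2.44, SE 0.06), at 8.26 FPKM in Prr33-gRNA and 44.6 FPKM in Ctrl-gRNA. Apol9a and Apol9b share part of their exon sequence: 52.3% of the 50-base windows of Apol9b exons and 16.5% of those of Apol9a occur in the other gene. Counting could therefore have split such reads between them or discarded them. The summed level of the pair does not depend on such a split, but it would lack any discarded reads. It was 91.9, 85.9 and 71.9 CPM in Prr33-gRNA and 523, 504 and 483 CPM in Ctrl-gRNA libraries. The pair made up 96.3% of the family's summed CPM in Prr33-gRNA and 95.6% in Ctrl-gRNA.

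Apol10b (chr15:77583819-77596125, minus strand) was nearly undetected in one group. It had 5, 1 and 3 counts in the Prr33-gRNA libraries and 79, 77 and 113 counts in the Ctrl-gRNA libraries, which is 0.159 ± 0.108 CPM against 5.22 ± 1.32 CPM (SD, n = 3 each). The log2 fold change was -4.97 (SE 0.38), and -5.54 without Prr33-gRNA replicate 1. A library's 3 counts correspond to 0.150 to 0.182 CPM, so its level in the Prr33-gRNA libraries lay close to the limit of detection, and such limits cover counting error only.

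Apol8 (chr15:77747798-77757003, minus strand) was at 0.815, 1.16 and 0.749 CPM in the Prr33-gRNA libraries and at 11.9, 9.99 and 10.6 CPM in the Ctrl-gRNA libraries (log2 fold change -3.58, SE 0.21). Its groups were wide apart, and 0 of its 50-base windows recur in another gene, so this fall was measured on a sequence with no such copy. Apol6 (chr15:77044729-77057106, plus strand) was at 0.760, 1.55 and 0.600 CPM in Prr33-gRNA and at 3.56, 3.82 and 6.13 CPM in Ctrl-gRNA libraries. Its log2 fold change was -2.22 (SE 0.31) and -2.72 without Prr33-gRNA replicate 2, its highest Prr33-gRNA library. Of the exonic bases of Apol6, 1.42% overlap the more abundant opposite-strand gene Mb. Apol7a, at 0.978, 0.829 and 1.55 CPM in Prr33-gRNA and 2.81, 2.54 and 2.80 CPM in Ctrl-gRNA libraries, had the smallest fall of the family (-1.27, SE 0.30), and 15.5% of its windows are shared with other genes. On the log2(FPKM + 1) scale, which compresses low genes, the falls of Apol6, Apol7a, Apol8 and Apol10b were smaller, at -0.71, -0.47, -1.83 and -1.58.

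The other 6 members of the family were not tested. Apol7b, Apol7c, Apol7e, Apol10a and Apol11b had 0 counts in each library, and Apol11a had 1 count in all. Summed over the family, the level was 94.7, 89.5 and 74.9 CPM in the Prr33-gRNA libraries and 545, 525 and 509 CPM in the Ctrl-gRNA libraries.

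**Figure D2:**
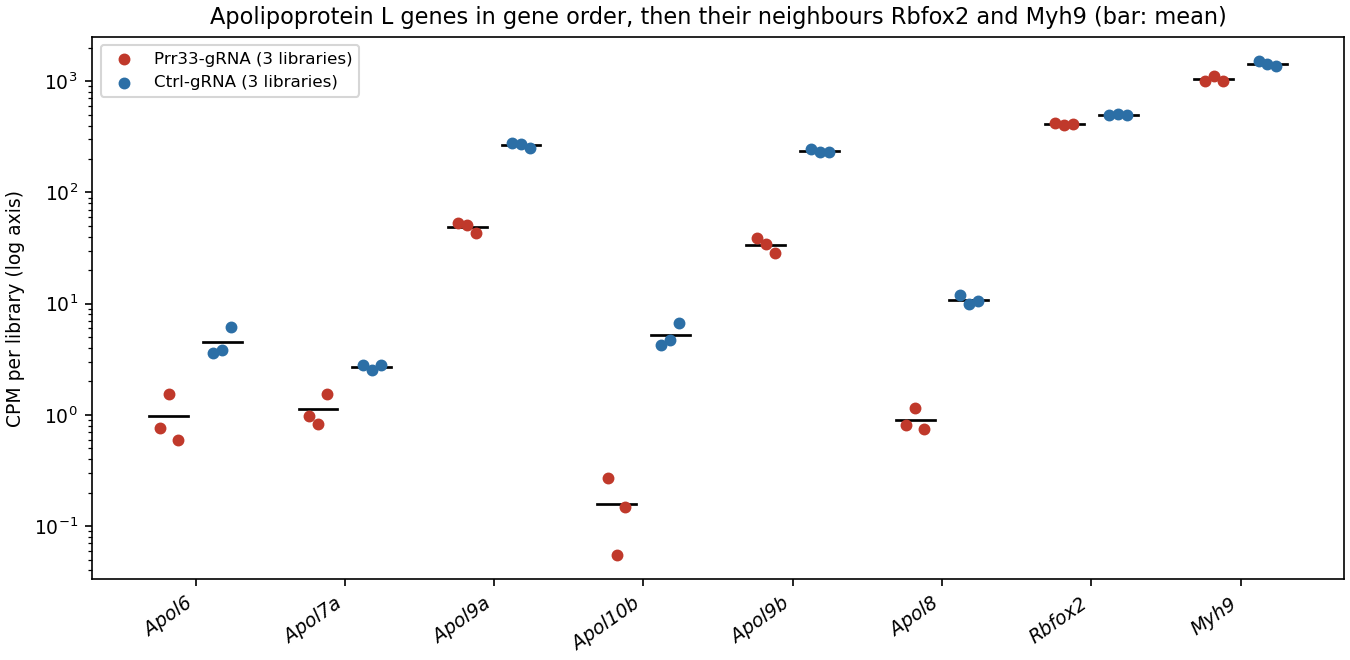
CPM per library (log axis) of the 6 tested apolipoprotein L genes in gene order, followed by the neighbours Rbfox2 and Myh9, with Prr33-gRNA libraries in red on the left of each pair and Ctrl-gRNA libraries in blue on the right, bars marking means. The colours do not overlap for any of the 8 genes, and the gap is wide for the family (34.0 and 236 CPM on average for Apol9b) and narrow for Rbfox2 (410 and 502 CPM).

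Stat2 and Irf9, which encode transcription factors of the interferon response, were also lower, and both were chosen after their values were seen. Stat2 was at 86.0, 80.5 and 70.3 CPM in the Prr33-gRNA libraries and at 328, 317 and 337 CPM in the Ctrl-gRNA libraries (log2 fold change -2.05, SE 0.06, edgeR adjusted p = 2.09e-22). Irf9, which lies on chromosome 14, averaged 28.0 ± 1.34 CPM against 134 ± 3.64 CPM (SD, n = 3 each; log2 fold change -2.26). Their libraries did not overlap between groups, and the part of these genes in the falls of the Apol genes was not tested.

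Mb, which overlaps the opposite-strand gene Apol6, and Myh9, at the other end of the apolipoprotein L genes, had smaller differences. Both were set aside by the rule. Myh9, for the heavy chain of nonmuscle myosin IIA and the next gene beyond Apol8, was at 1013, 1117 and 996 CPM in Prr33-gRNA and at 1508, 1427 and 1369 CPM in Ctrl-gRNA libraries (log2 fold change -0.46, SE 0.04). Mb, for the oxygen-binding protein myoglobin, was at 124, 130 and 105 CPM in Prr33-gRNA and at 120, 101 and 106 CPM in Ctrl-gRNA libraries. Its groups overlapped and its value of 0.13 did not pass (edgeR adjusted p = 0.210), although it was called higher without Ctrl-gRNA replicate 1 (0.21) or Prr33-gRNA replicate 3 (0.22), with a replicate block (0.13) and without a low-count filter (0.14). Rpl8, a ribosomal protein gene, had a log2 fold change of -0.69 (SE 0.12), at 381 ± 34.8 CPM in Prr33-gRNA and 616 ± 73.3 CPM in Ctrl-gRNA (SD, n = 3 each).

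Along the chromosome, the tested members fell into alternating runs with and without called falls, whose bounds were drawn after the values were seen. The counts per run given below follow from where these bounds were drawn, and no structure of the segment is read from them. At the left end, Mfsd3, Recql4, Lrrc14 and C030006K11Rik lay within 22.4 kb, and 0 of the 4 were called. Mfsd3 (chr15:76701465-76704239, plus strand), for a predicted membrane transporter and the first tested member, was at 4.51, 5.47 and 5.05 CPM in Prr33-gRNA and at 6.70, 6.91 and 5.65 CPM in Ctrl-gRNA libraries. Its groups did not overlap, but its value of -0.36 (SE 0.17) passed only on the FPKM scales, and 17.2% of its exonic bases are also exons of the opposite-strand gene Recql4. Recql4, a RecQ-type DNA helicase, was at 6.11 ± 1.16 CPM in Prr33-gRNA and 6.53 ± 0.538 CPM in Ctrl-gRNA (SD, n = 3 each; -0.09), and Lrrc14, for a leucine-rich repeat protein, had -0.02. C030006K11Rik was at 25.1, 22.9 and 23.0 CPM in Prr33-gRNA and at 22.9, 22.5 and 21.2 CPM in Ctrl-gRNA libraries (log2 fold change 0.09, SE 0.09), with the groups overlapping.

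Just beyond C030006K11Rik the genes were lower. Of 5 tested members from Arhgap39 to 1110038F14Rik, over 227 kb, 4 fell (26.6% of all tested genes did), with a median of -0.66. Arhgap39, which encodes a GTPase-activating protein, was at 21.2, 20.5 and 20.1 CPM in Prr33-gRNA and at 34.7, 33.3 and 36.8 CPM in Ctrl-gRNA libraries (log2 fold change -0.76, SE 0.08), with a wide gap between groups. The zinc-finger genes Zfp251 and Zfp647 fell (log2 fold changes of -0.36 and -0.67), as did 1110038F14Rik (-0.66). The third zinc-finger gene, Zfp7, had -0.33 and was called only without Prr33-gRNA replicate 2 (-0.45). It shares 14.2% of its exonic bases with the readthrough gene Gm49527, which had 0 counts.

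Rbfox2 (chr15:77078990-77307004, minus strand), which lies between Apol6 and Apol7a, is a splicing regulator that binds GCAUG motifs and controls exon choice in muscle. It was at 418, 401 and 410 CPM in the Prr33-gRNA libraries and at 500, 509 and 497 CPM in the Ctrl-gRNA libraries. The groups were tight and separate, with a small fall of -0.29 (SE 0.04). At 50.2 FPKM in Prr33-gRNA and 61.3 FPKM in Ctrl-gRNA it was among the 6 most abundant members per length.

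Past Myh9 came a run without a called member. Txn2, Foxred2, Eif3d and Ift27, spread over 259 kb, had a median of -0.17, and 0 of the 4 were called. Txn2 (chr15:77915047-77929006, minus strand), the mitochondrial thioredoxin, was at 130, 130 and 124 CPM in Prr33-gRNA and at 127, 129 and 121 CPM in Ctrl-gRNA libraries (log2 fold change 0.03, SE 0.05). Its groups overlapped, and scaling by library size alone turned the value into a called rise of 0.12. Eif3d, a subunit of translation initiation factor eIF3, averaged 118 ± 5.31 CPM in Prr33-gRNA and 127 ± 8.24 CPM in Ctrl-gRNA (SD, n = 3 each; -0.11). It was called lower, at -0.15, without Ctrl-gRNA replicate 1 or without Prr33-gRNA replicate 2, and at -0.13 when scaling left out chromosomes 14 and 15. Of its exonic bases, 43.3% overlap the antisense gene Gm17638. Foxred2, for an oxidoreductase of the endoplasmic reticulum, had -0.24 (called at -0.40 without Prr33-gRNA replicate 1), and Ift27, a small GTPase of intraflagellar transport, had -0.22 (-0.31 to -0.11 without single libraries).

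From Tst to C1qtnf6, over 132 kb, 4 of 5 members were lower (26.6% of all tested genes were), with a median of -0.79. Tst and Mpst are neighbouring sulfurtransferase genes of sulfide and cysteine breakdown. Mpst was at 17.6, 17.6 and 14.3 CPM in Prr33-gRNA and at 25.1, 23.8 and 26.1 CPM in Ctrl-gRNA libraries (log2 fold change -0.60), without overlap, while Tst, at 1.18 CPM against 1.66 CPM on average, was not called (-0.48). Kctd17, an adaptor of cullin ubiquitin ligases, was at 23.7, 28.3 and 28.2 CPM in Prr33-gRNA and at 49.2, 48.1 and 41.8 CPM in Ctrl-gRNA libraries (-0.79, SE 0.08). Il2rb, a chain shared by the receptors for interleukin-2 and interleukin-15, was low, at 2.66, 3.09 and 1.80 CPM in Prr33-gRNA and 4.91, 4.91 and 4.70 CPM in Ctrl-gRNA libraries (-0.95, SE 0.22). Neither gene's groups overlapped.

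C1qtnf6 (chr15:78523346-78531416, minus strand), for a secreted C1q-related protein, was the most abundant member of that run per length, at 20.8 FPKM in Prr33-gRNA and 38.8 FPKM in Ctrl-gRNA. It was at 55.7, 58.4 and 55.1 CPM in the Prr33-gRNA libraries and at 103, 109 and 104 CPM in the Ctrl-gRNA libraries. The level was 1.87-fold lower in Prr33-gRNA (log2 fold change -0.90, SE 0.05), with little spread in either group.

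The 4 tested members from Card10 to Gga1, over 119 kb, included the only one called higher. Lgals2, for galectin-2, was at 1.36, 1.88 and 1.05 CPM in Prr33-gRNA and at 1.03, 0.606 and 0.595 CPM in Ctrl-gRNA libraries, so the groups were separated by a narrow gap at a low level. Its log2 fold change of 0.92 (SE 0.38) was no longer called without Ctrl-gRNA replicate 2 (0.80) or 3 (0.79), without Prr33-gRNA replicate 1 (0.95) or 2 (0.68), in DESeq2 (0.94) or without a filter on low counts (0.93). Its exons overlap those of Cdc42ep1 over 6.42% of their bases. Cdc42ep1 (chr15:78842624-78850897, plus strand), an effector of the GTPase Cdc42, was at 74.8, 75.4 and 77.5 CPM in Prr33-gRNA and at 74.6, 68.4 and 71.5 CPM in Ctrl-gRNA libraries. Each Prr33-gRNA library was above each Ctrl-gRNA library, by little, and its value of 0.09 (SE 0.06) was called only with library size alone (0.18). Gga1, a Golgi-localised adaptor for clathrin, had -0.02, and Card10, a scaffold of the BCL10 and MALT1 complex, had 0.55 (SE 0.45; 0.24 to 0.86 without single libraries) at under 1 CPM.

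At the right end, from Sh3bp1 to Triobp over 106 kb, 5 of 5 members were lower, with a median of -0.53. The bounds of this run were drawn on these calls, and 26.6% of all tested genes were lower. Sh3bp1, a GTPase-activating protein for Rac, was at 1.25, 1.33 and 0.749 CPM in Prr33-gRNA and at 3.51, 3.33 and 2.38 CPM in Ctrl-gRNA libraries, without overlap. It was the one member outside the apolipoprotein L family with a fall of over 2-fold (log2 fold change -1.48, SE 0.29). Pdxp, a phosphatase for pyridoxal phosphate, fell to 11.2 ± 0.927 CPM in Prr33-gRNA, against 16.2 ± 1.98 CPM in Ctrl-gRNA (SD, n = 3 each; -0.53). Pdxp shares 45.1% of its exonic bases with the same-strand readthrough gene Gm49510. Sh3bp1 shares 64.5% with Gm49510 or with the opposite-strand gene 1700027A07Rik. Gm49510 had 0 counts, so reads over the shared exons may have been discarded or assigned to one gene.

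Lgals1 (chr15:78926725-78930465, plus strand) encodes galectin-1, a secreted lectin that promotes myoblast fusion. It was the most abundant member per length, at 1109 FPKM in Prr33-gRNA and 1373 FPKM in Ctrl-gRNA, and it took 45.2% of all member counts in Prr33-gRNA and 39.8% in Ctrl-gRNA. Its level was 994, 1070 and 947 CPM in the Prr33-gRNA libraries and 1329, 1172 and 1242 CPM in the Ctrl-gRNA libraries (log2 fold change -0.31, SE 0.05), without overlap. Nol12, for a nucleolar RNA-binding protein, fell by 0.34 on the log2 scale. Triobp (chr15:78947724-79005869, plus strand), an actin-bundling protein and the last member, was at 11.4, 11.8 and 11.7 CPM in Prr33-gRNA and at 19.7, 17.5 and 17.9 CPM in Ctrl-gRNA libraries. Its groups were well apart (-0.66, SE 0.11).

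**Figure D3:**
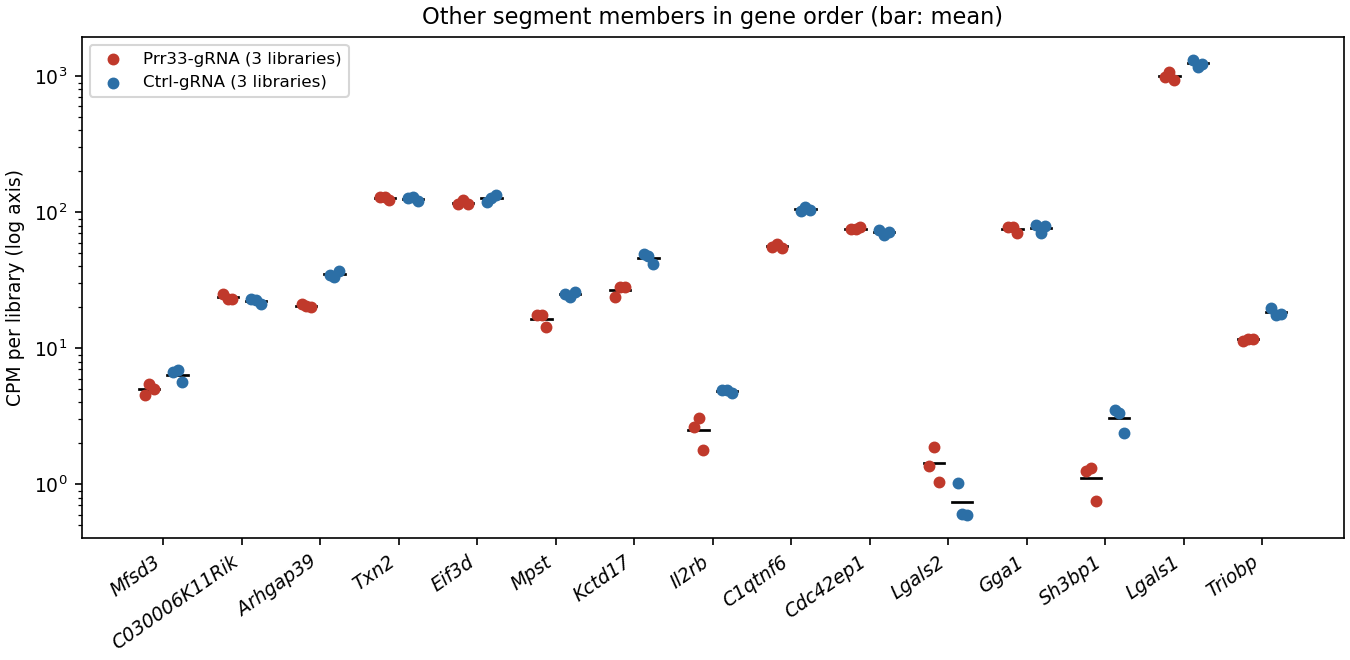
CPM per library (log axis) of 15 members outside the apolipoprotein L family in gene order, with Prr33-gRNA libraries in red on the left of each pair and Ctrl-gRNA libraries in blue on the right, bars marking means. Txn2, Eif3d and Gga1 sit at about the same height in both groups, whereas Arhgap39, Kctd17, C1qtnf6 and Triobp are lower in each Prr33-gRNA library.

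Members with too few counts to test included several that mark blood cells. Ncf4, Rac2 and Cyth4, which are expressed mainly in leukocytes, had 0 counts in each library, as did Cacng2, a neuronal channel subunit. Csf2rb, the common chain of the receptors for granulocyte-macrophage colony-stimulating factor and interleukin-3, had 1, 3 and 3 counts in Prr33-gRNA and 0, 1 and 0 counts in Ctrl-gRNA libraries, and its copy Csf2rb2 had 6 counts in all. Tmprss6, a membrane protease of liver iron control, had 0, 3 and 3 counts in Prr33-gRNA and 16, 4 and 7 counts in Ctrl-gRNA libraries. Pvalb, the calcium buffer parvalbumin of fast muscle fibres, had 2, 0 and 3 counts in Prr33-gRNA and 4, 13 and 5 counts in Ctrl-gRNA libraries. Commd5 had 2, 3 and 1 counts against 10, 9 and 7 counts, but 66.8% of its exonic bases are shared with the readthrough gene Gm49527. At this depth no difference is read from these genes. Lrrc24, Sstr3, Elfn2 and Mfng had 23, 10, 1 and 1 counts over all libraries, and Gm49527, 1700025B11Rik, Gm36245, Tex33 and Gm49510 had none.

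The edges of the segment were not sharp. On the left, Gpt, for alanine aminotransferase and just outside, had -0.25 and Mfsd3, just inside, had -0.36. On the right, Triobp, just inside, had -0.66 and H1f0, for a linker histone and just outside, had -1.30 (84.8 CPM in Prr33-gRNA and 209 CPM in Ctrl-gRNA on average). The flanking 5 Mb on each side were also more often lower than higher: 26 of 63 tested genes were lower and 3 higher on the left, and 40 of 77 were lower and 6 higher on the right. Their medians were -0.15 and -0.20. Over the rest of chromosome 15, flanks included, 38.8% of 446 tested genes were lower and 15.2% higher (median -0.12). In windows of 2.3 Mb, the segment's own, with the set-aside genes, had 59.5% lower (median -0.46). The next window on the right had 59.0% lower (median -0.20), and one starting 23 Mb from the segment start had 64% (median -0.35). Medians of the 13 other windows with at least 10 tested genes ran from -0.35 to 0.06. Outside chromosomes 14 and 15 the median of 11184 tested genes was 0.03, with 25.6% lower and 30.4% higher. On chromosome 14, where 361 of 400 tested genes were lower, the median was -0.90. No test sets the members apart from the flanks, since the segment was drawn on these values.

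In each library the median member stood at -0.41, -0.39 and -0.50 in Prr33-gRNA and at 0.04, -0.03 and -0.02 in Ctrl-gRNA, on the scale of log2(CPM + 0.5) against the Ctrl-gRNA mean of each gene. Each of the 3 Prr33-gRNA libraries lay below each Ctrl-gRNA library, as the choice of the segment for its falls in these libraries makes likely beforehand. The same held for the flanks. Their medians in the Prr33-gRNA libraries were -0.17, -0.11 and -0.15 on the left and -0.18, -0.14 and -0.16 on the right. The members lay on both strands, and 10 of 15 on the plus strand and 10 of 19 on the minus strand were lower. Among all tested genes 26.6% were lower, and nothing about strand is read from these counts.

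**Figure D4:**
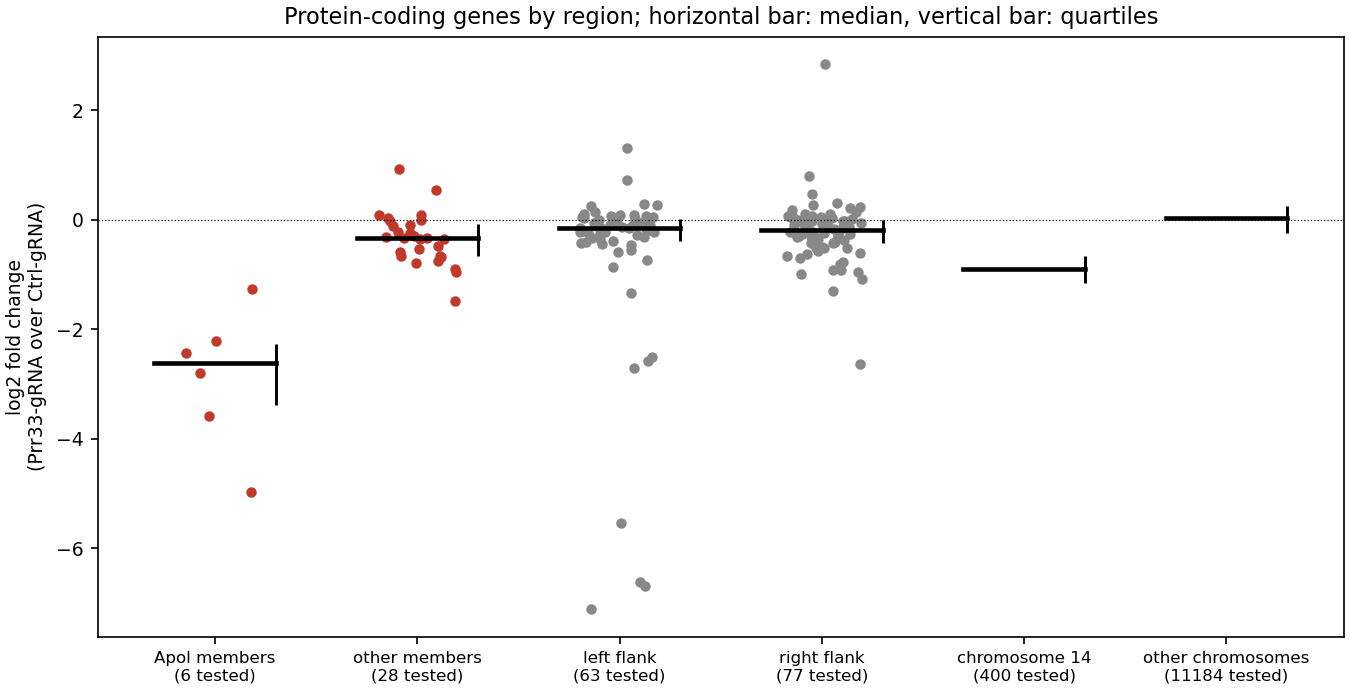
Log2 fold change (Prr33-gRNA over Ctrl-gRNA) of tested protein-coding genes by region, with points for the members and flanks, a horizontal bar for the median and a vertical bar for the quartiles. The 6 apolipoprotein L genes have a median of -2.62, the other 28 members -0.33, the flanks -0.15 and -0.20, chromosome 14 -0.90 and the other chromosomes 0.03.

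The deepest falls in the left flank were in the Ly6 cluster, whose genes encode small surface proteins anchored by lipid and come in similar copies. Ly6a averaged 4.75 ± 0.405 CPM in Prr33-gRNA and 464 ± 16.2 CPM in Ctrl-gRNA, and Ly6e 7.94 ± 0.342 CPM against 368 ± 7.04 CPM (SD, n = 3 each). Parp10, a mono-ADP-ribosyltransferase, averaged 40.2 ± 4.93 CPM against 228 ± 4.47 CPM (SD, n = 3 each; log2 fold change -2.51). These were named after their values were seen. In the right flank the values ran from -2.63 to 2.84, and 3 of 77 genes were lower by at least 2-fold. In the left flank 8 of 63 were, beside 7.96% of all tested genes.

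Relatives and complex partners of the members that lie elsewhere in the genome were taken as 14 lists. Of their 82 tested genes, 23 were lower, 27 were higher and 32 were not called, with a median of 0.04 (edgeR, adjusted over all genes), beside 26.6% lower and 25.5% higher among all tested genes and a median of -0.00.

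For members without a called change, the partners moved in both directions. Of 12 further eIF3 subunits 6 rose and 3 fell, with a median of 0.13. The scaffold subunit Eif3a rose to 620 ± 13.2 CPM in Prr33-gRNA, against 550 ± 14.6 CPM in Ctrl-gRNA (SD, n = 3 each; log2 fold change 0.17), and Eif3c had 0.01. Of 16 other subunits of the intraflagellar transport complex that holds Ift27, 7 rose and 3 fell (median 0.17). Ift81 in it fell to 46.4 ± 1.97 CPM in Prr33-gRNA, against 53.3 ± 0.799 CPM in Ctrl-gRNA (SD, n = 3 each; -0.20), while Ift74 rose to 51.5, 54.2 and 51.8 CPM in Prr33-gRNA, against 38.6, 38.9 and 44.2 CPM in Ctrl-gRNA libraries (log2 fold change 0.37, SE 0.07). Of 6 adaptors related to Gga1, 4 rose and 0 fell, with Gga2 at 0.23 and the clathrin adaptor subunit Ap1b1 at 0.33. In the thioredoxin list 1 of 6 rose, the reductase Txnrd1 (0.23), and 1 fell, and of 4 RecQ helicases 1 fell, Recql5 (-0.18), a call lost with RLE size factors. The 8 tested Rac and Cdc42 group genes, the list of Cdc42ep1 and of Rac2 (0 counts), gave 4 falls and 1 rise (median -0.26), with Rac1 at 0.18 and Cdc42 at 0.01. With library size alone, which moved the median of all genes by 0.09, the counts were 8 higher and 2 lower for eIF3, 8 and 1 for the transport complex, 3 and 1 for thioredoxin, 2 and 0 for RecQ, and 2 and 4 for the Rac and Cdc42 group.

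Partners of members with a called change were also mixed. Among 5 tested galectins 3 fell and 1 rose (median -0.58, the rise lost when scaling left out chromosomes 14 and 15). Lgals8 fell to 57.6 ± 3.51 CPM in Prr33-gRNA, against 113 ± 2.81 CPM in Ctrl-gRNA (SD, n = 3 each; -0.98), and Lgals3, which lies on chromosome 14, to 141 ± 7.22 CPM against 210 ± 10.5 CPM (SD, n = 3 each; -0.58). Rbfox1, the one tested relative of Rbfox2, fell to 21.6 ± 1.58 CPM, against 31.1 ± 2.43 CPM in Ctrl-gRNA (SD, n = 3 each; -0.52). In the sulfide and cysteine list, with Got1 (-0.01) and Got2 (-0.07) as its most abundant genes, 3 of 6 fell and 1 rose (median -0.18).

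Of the list of cytokine receptor chains that go with Csf2rb or Il2rb, only Il3ra was tested, which pairs with Csf2rb and lies on chromosome 14, and it fell (-1.83). Lists linked to other members without enough counts gave 6 rises and 2 falls among 9 COMMD genes (median 0.23), 1 fall among 3 cytohesins (Cyth3 at -0.32 and Cyth2 at -0.11) and 0 calls among 2 fringe glycosyltransferases (Rfng 0.09, Lfng -0.05). The 3 tested genes of the Card10 complex had 0 calls, with Bcl10 at 0.15 (edgeR adjusted p = 0.0518).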

How the data were processed

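The authors deposited a table of raw read counts per gene for 6 libraries, and its columns were assigned to samples by name. The submitters' processing notes list featureCounts 1.5.0-p3, HISAT2 2.0.5, CASAVA and the mm10 build, while the strand setting and annotation release are not given in the sources used here. A table of FPKM values was also deposited by the authors, and each of its columns equals counts over gene length and 1 constant (relative deviation at most 4.67e-09 for genes with at least 50 counts), so FPKM is no separate check of scaling.

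Members and partner lists were chosen with earlier results of these data known. The genes given with values per library followed a rule: the 6 most abundant members per length, the 6 lowest and 4 highest in fold change among those averaging at least 1 CPM, the first and last tested, the nearest genes outside, those set aside and up to 2 partners per list. Other genes given so were chosen after their values were seen.

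Counts were tested with edgeR 4.0.16 (R 4.3.3; quasi-likelihood F test, robust) on genes kept by filterByExpr, with TMM factors (1.03 to 1.04 in Prr33-gRNA and 0.968 to 0.971 in Ctrl-gRNA), with no covariate. P-values were adjusted by Benjamini-Hochberg over 14651 genes, with a threshold of 0.05. CPM uses the scaled library sizes, and the SE is the absolute log2 fold change over the square root of F. Overlaps of exons and shared 50-base windows were computed on GENCODE M21 (GRCm38), in which 58 of 58 members had the same start and end as in the table. No 2 libraries of a group agreed within counting noise (chi-square per gene 2.90 to 5.73). Alternatives were other scalings, DESeq2 1.42.0, limma 3.58.1, other filters, a replicate block, moved edges and leaving out each library.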

Additional observations from a re-analysis of the deposited data

How the results depend on the processing

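The Apol genes were left out as a choice made after seeing the data. The number of members called higher, 1, was 3 with library size alone and 0 in DESeq2, without a low-count filter, with both edges moved inward by 0.25 Mb or at 5 CPM and above, and 0 to 1 when single libraries were left out; it rests on Lgals2. With the edges moved inward 11 of 16 members were lower, the median was -0.85 and the share of counts gave a log2 ratio of -0.69, and with the edges moved outward the median was -0.32 and the ratio -0.33, since other genes enter. Without Apol genes the median was -0.33 and the ratio -0.20. The median was also -0.33 with library size alone and -0.31 on log2(FPKM + 1), both over the same 34 members. It was -0.56 in DESeq2 and -0.55 without a filter, each over 44 members, since members with few counts enter. With at least 1 CPM in 3 libraries it was -0.49 over 33 members, and at 5 CPM and above -0.35 over 26. The left flank gave -0.060 with library size alone, -0.11 on log2(FPKM + 1) and -0.17 to -0.10 without single libraries, and the right flank -0.11, -0.16 and -0.20 to -0.16. The deviations of same-numbered libraries had correlations of -0.02, -0.00 and 0.06, which shows no pairing; with a replicate block 20 members were lower and 1 higher, with a median of -0.42. Of 662 values for 39 genes, 636 kept direction and call, 6 lost the call, 13 gained it and 7 changed sign, none of them called in either fit: Lrrc14 and Gga1 with library size alone (0.074 and 0.065), Recql4 without Prr33-gRNA replicate 2, Lrrc14 without Ctrl-gRNA replicate 2, and Gga1 without Ctrl-gRNA replicate 1 or 3 or Prr33-gRNA replicate 3. Without single libraries these ran from -0.21 to 0.052 for Recql4, -0.042 to 0.024 for Lrrc14 and -0.077 to 0.024 for Gga1. Except where given, the cause was not tested. Depth limits the 8 tested members below 5 CPM and the 24 not tested.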
